A study of Mus musculus with 64 samples.

Results

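The anti-NK1.1 response of natural killer (NK) cells lacking the prostaglandin E2 receptors EP2 and EP4 was examined in conditioned medium. It was read from 3 libraries of EP2/EP4KO NK cells that were CM-treated and stimulated with anti-NK1.1 and 3 libraries of the same cells that were CM-treated and unstimulated, 6 of the 64 libraries of the series, chosen by their labels alone. The series is bulk 3' mRNA sequencing of cultured mouse spleen NK cells from 3 genotypes, each untreated, given prostaglandin E2 (PGE2) or given conditioned medium (CM), with and without stimulation.

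The EP2/EP4KO cells came from GzmbCre Ptger2-/- Ptger4 fl/fl mice, in which Ptger2 is deleted in every cell and Ptger4 is deleted where the GzmbCre recombinase is made. The EP2KO cells came from mice that the study lists as Ptger2-/- Ptger4 fl/fl without Cre, and the WT cells from C57BL/6J mice. All cells were grown for 5 days in low-dose IL-2 and IL15:IL15Ra before treatment, so the unstimulated cells also had cytokine. CM was taken from PGE2-producing control BRAFV600E cells. Unstimulated cells had CM for 5 h, and stimulated cells had CM for 1 h and then anti-NK1.1 for a further 4 h in its presence. The comparison groups were EP2/EP4KO cells untreated or with 100 ng/ml PGE2 (3 libraries per arm) and EP2KO and WT cells in CM (4 libraries per arm). The labels do not say whether replicates came from separate mice, so the p-values measure only the spread between these libraries.

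NK1.1 is an activating receptor of mouse NK cells that pairs with an FcRgamma signalling chain, and crosslinking it starts tyrosine kinase, calcium, MAP kinase and NF-kB signalling that ends in cytokine release and killing. PGE2 acts on EP2 and EP4, receptors coupled to Gs, which raise cyclic AMP and activate protein kinase A, a pathway known to restrain NK cells. What else the conditioned medium held is not given in the sources used here.

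Total counts were between 1260700 and 1393233 in the stimulated libraries and between 1041485 and 1411589 in the unstimulated ones, against 753973 to 1693750 over all 64 libraries. Mitochondrial genes took 7.11 to 9.02% of counts after stimulation and 8.99 to 9.86% before it. All 12 NK cell markers searched were tested, and their summed level was 8425 to 10102 CPM (counts per 1000000, scaled for library composition) before and 7996 to 12514 CPM after stimulation. Markers of other cells were lower: 476 to 493 CPM before and 521 to 669 CPM after for T cells, mostly Trbc1 and Trbc2, and 146 to 198 and 129 to 186 CPM for macrophages and dendritic cells. B cell markers summed to 71.9 to 123 and 61.2 to 112 CPM, with 4 of 8 at 0 in all 6 libraries, neutrophil markers to 75 to 193 and 49.9 to 122 CPM, and erythroid and melanoma markers to no more than 4.1 CPM. Stimulated replicate 1 stood somewhat apart from the other stimulated libraries, with a chi-square per degree of freedom of 8.09 and 17.96 against them where those 2 differed by 4.604.

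The deleted genes were read first. Ptger2 was at 3.57, 4.12 and 6.45 CPM in unstimulated replicates 1, 2 and 3 and at 9.51, 5.40 and 9.67 CPM in the stimulated ones, which overlap. Ptger4 was at 31.3, 34.3 and 40.6 CPM without stimulation and at 74.5, 63.2 and 88.6 CPM with it, so every stimulated library was higher, by 1.09 ± 0.22 on the log2 scale (± SE, 3 against 3 libraries, adjusted p = 7.5e-05). A 3' tag can lie outside the deleted part of a gene, so these levels check neither genotype label. Gzmb, for which the Cre line is named, was read in all 6 libraries, at 1593, 1261 and 1022 CPM before and 3910, 2959 and 1833 CPM after stimulation. Whether the level of Cre follows that of Gzmb was not tested.

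Anti-NK1.1 changed 25.1% of the genes tested, in a response led by cytokines, chemokines, immediate early and NF-kB genes and genes of ribosome and protein production. Of 10723 genes, 1541 rose (14.4%) and 1146 fell (10.7%) at an adjusted p below 0.05 in edgeR's quasi-likelihood test. These shares of all genes are the background for every count of list members below. At least 2-fold changes made up 753 of the rises and 494 of the falls, and at least 4-fold changes 151 and 36. The stimulated and unstimulated libraries did not overlap for 2391 of the 2687 called genes, against 3525 of all genes tested (32.9%). The median change over all genes was -0.01 on the log2 scale. Fitted on these 6 libraries alone, 987 genes rose and 617 fell. With the replicate number as a block, 1887 rose and 1578 fell.

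**Figure D1:**
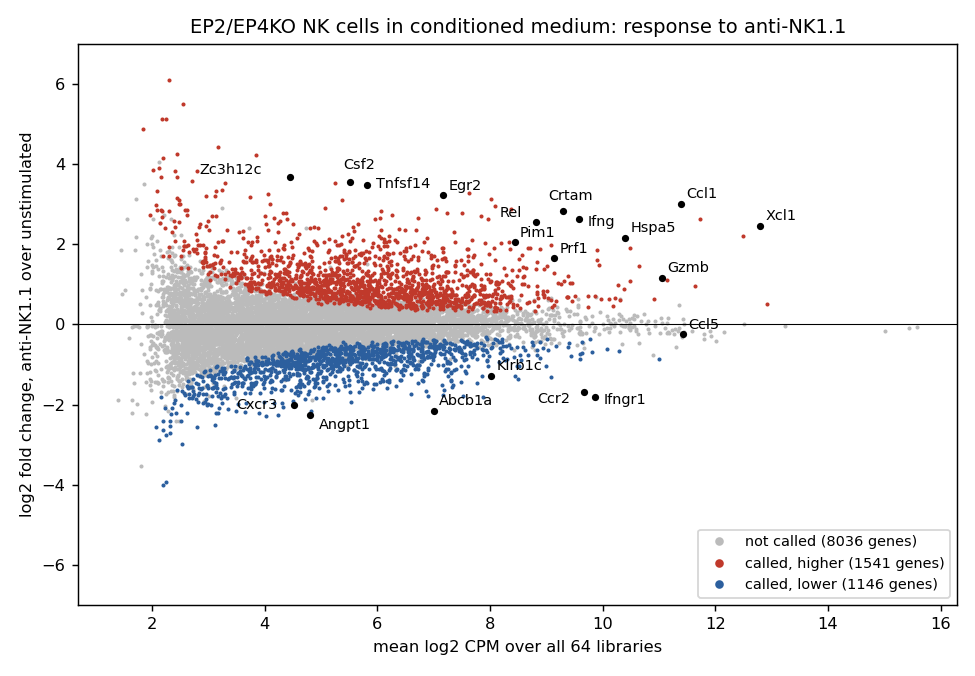
Each point is 1 of the 10723 tested genes; the x axis is its mean log2 CPM over all 64 libraries and the y axis its log2 fold change, anti-NK1.1 over unstimulated, in EP2/EP4KO cells in CM (3 against 3 libraries). Red points are the 1541 genes called higher, blue the 1146 called lower and grey the rest; Ccl5 lies near 0 while Ccl1 and Xcl1 stand far above it at similar or higher mean levels.

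The 10 largest rises among well-read genes (mean log2 CPM of at least 4, no overlap between groups) were Zc3h12c, Csf2, Atf3, Tnfsf14, Hivep3, Hbegf, Egr2, Nr4a2, Cd83 and Ccl1, from 3.68 down to 3.02 on the log2 scale. Zc3h12c, a relative of the RNase Regnase-1, went from 3.57, 2.74 and 2.77 CPM to 31.7, 54.0 and 33.0 CPM. Hivep3, a zinc finger factor, went from 38.4, 46.0 and 54.4 CPM to 322, 436 and 591 CPM, and Hbegf, an EGF receptor ligand, from at most 2.77 CPM to at least 23.0 CPM. The 10 largest falls, from -2.29 to -1.92, were Dipk1a, Fam184a, Angpt1, Abcb1a, Rab27b, Cxcr3, Ifitm10, Nod1, Gpr160 and Tcp11l2. Abcb1a, the P-glycoprotein efflux pump, went from 103, 134 and 171 CPM to 30.9, 30.8 and 29.8 CPM, and Angpt1, the ligand of the Tie2 receptor, from 39.3, 37.0 and 37.8 CPM to 4.75, 10.8 and 8.06 CPM. The rises are secreted factors, transcription factors and an RNA regulator for the most part, and the falls include a homing receptor, an efflux pump and Nod1, a sensor of bacterial peptidoglycan.

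Promoters were looked up for the largest rises among the members named by rule from the cytokine, chemokine and TNF ligand lists. Of these, Csf2, Tnfsf14 and Ccl1 have an entry in the RefSeq promoter table. Areg and Hbegf, which rose by more than Ccl1, were not looked up. The windows of Tnfsf14 and Ccl1 are shown because they held a match to a motif of AP-1 or NFAT, factors that stimulation is known to activate. Each line is the 250 bases that end just before the start, 5' to 3' on the minus strand of build GRCm38.p6, with matches in capitals. They lie at chr17:57194182-57194431 for Tnfsf14 and chr11:82179813-82180062 for Ccl1.
Tnfsf14: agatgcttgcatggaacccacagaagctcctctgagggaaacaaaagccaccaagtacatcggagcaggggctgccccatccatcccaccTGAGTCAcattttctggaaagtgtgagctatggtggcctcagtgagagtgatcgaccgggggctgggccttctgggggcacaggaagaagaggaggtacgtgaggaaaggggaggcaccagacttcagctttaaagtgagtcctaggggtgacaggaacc
Ccl1: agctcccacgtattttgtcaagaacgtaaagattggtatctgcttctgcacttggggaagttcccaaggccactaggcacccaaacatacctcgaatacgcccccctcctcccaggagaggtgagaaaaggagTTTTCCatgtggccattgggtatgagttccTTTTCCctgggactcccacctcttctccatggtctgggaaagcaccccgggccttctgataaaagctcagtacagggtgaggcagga
The capitals in Tnfsf14 are the letters TGAGTCA, a match to the AP-1 motif TGANTCA, 160 bases before the start. Those in Ccl1 are TTTTCC at 117 and 87 bases before it, matches on the other strand to the NFAT core GGAAAA. The NFAT core was matched in 20.4% of the 32851 promoter windows of this length and TGANTCA in 6.75%. The window of Csf2 held none of these, nor the NF-kB motif GGGNN followed by TTTCC (1.41% of windows) or the CRE TGACGTCA (1.55%) and its part TGACG (17.8%), all searched on both strands. That window lay at chr11:54249900-54250149, upstream of the GENCODE end of this minus-strand gene at 54249667. The bases between were not searched, so the lack of a match does not describe the promoter next to that position. A match is a description of letters only, and Tnfsf9 had no entry.

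Of 15 cytokine and growth factor genes tested, 10 rose and 1 fell, with a median change of 1.71. Ifng, the interferon that activates macrophages, was at 285, 151 and 217 CPM without stimulation and at 1575, 1419 and 1052 CPM with it, a rise of 2.64 ± 0.22 (adjusted p = 4.8e-15). Csf2, which encodes GM-CSF, rose from 9.82, 5.49 and 5.53 CPM to 103, 97.9 and 43.5 CPM, or 3.55 ± 0.40. Tnf rose from 25, 12.3 and 15.7 CPM to 90.3, 70.1 and 66.9 CPM, or 2.12 ± 0.28. In each of these the lowest stimulated library was above the highest unstimulated one.

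Growth factors moved with them. The angiogenic factor Vegfa rose by 2.02 ± 0.25 and the EGF receptor ligand Areg by 4.22 ± 0.68, from at most 0.92 CPM to between 12.9 and 22.4 CPM. Spp1, which encodes osteopontin, rose by 1.47 ± 0.28, Lta, lymphotoxin alpha, by 1.89 ± 0.44, and Tgfb1 by 0.80 ± 0.17. Flt3l, the growth factor for dendritic cell precursors, was the member that fell, by 1.19 ± 0.24 on the log2 scale, from 42.9, 34.3 and 53.5 CPM to 22.2, 20 and 14.5 CPM.

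The chemokines divided into 5 that rose and 7 that were not called, of 12 tested, with a median of 2.32. Ccl1, the ligand of CCR8, was at 1057, 671 and 883 CPM without stimulation and at 10109, 6423 and 4578 CPM with it, a rise of 3.02 ± 0.24. Xcl1, which attracts cross-presenting dendritic cells, went from 3031, 1893 and 2349 CPM to 16414, 12995 and 10566 CPM (2.46 ± 0.20). Ccl4, an inflammatory chemokine, went from 2733, 1653 and 2123 CPM to 13532, 9274 and 7440 CPM (2.22 ± 0.23). Stimulated replicate 1 was the highest and replicate 3 the lowest for all 3, with no overlap of the groups.

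Ccl3 and Ccl9 rose by 2.62 ± 0.29 and 2.62 ± 0.24. Ccl5, which NK cells hold ready before activation, behaved otherwise: 3793, 3027 and 2794 CPM without stimulation and 3799, 2517 and 1775 CPM with it. Its groups overlapped, and the change of -0.25 ± 0.23 was not called (adjusted p = 0.484), while with the replicate number as a block it was -0.29 with an adjusted p of 0.0427. That block also brought the chemokines called to 7 higher and 1 lower. Cxcl9 and Cxcl10, which interferon gamma is known to induce, were not called, with changes of 2.41 ± 1.06 and 1.42 ± 0.82 and wide spread between the stimulated libraries, from 5.55 to 43.2 CPM for Cxcl9.

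TNF family ligands followed the cytokines, with 4 of 7 higher and none lower. Tnfsf14, also called LIGHT, was at 9.82, 7.55 and 15.7 CPM without stimulation and 114, 121 and 130 CPM with it (3.49 ± 0.26, adjusted p = 3.1e-17). Tnfsf8, the ligand of CD30, rose by 1.61 ± 0.20, and Tnfsf9 and Tnfsf4, the ligands of 4-1BB and OX40, by 3.02 ± 0.71 and 1.98 ± 0.51 from levels below 3 CPM. The death ligands Fasl and Tnfsf10, which encodes TRAIL, were not called, with changes of -0.55 ± 0.22 and 0.33 ± 0.23.

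**Figure D2:**
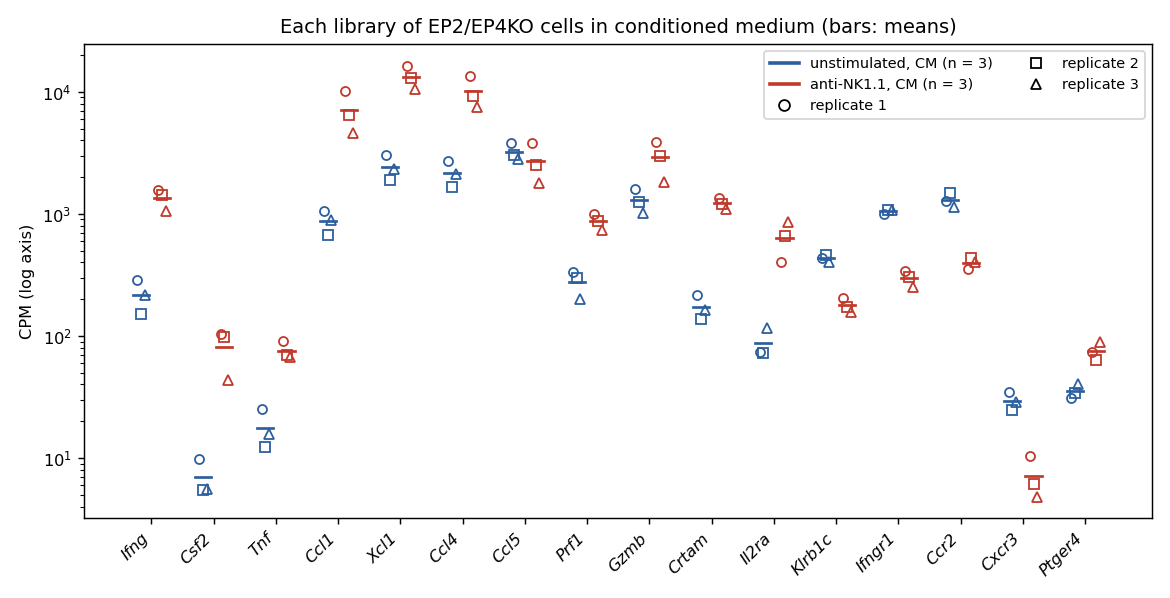
CPM on a log axis for 16 genes in each of the 6 libraries, with blue for CM alone and red for CM with anti-NK1.1, symbols for replicates 1 to 3 and bars for group means. Red lies above blue for Ifng, Csf2, Ccl1, Xcl1, Prf1 and Il2ra, below it for Klrb1c, Ifngr1, Ccr2 and Cxcr3, and the colours overlap for Ccl5.

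Killing genes rose in part. Of 22 cytotoxic granule genes tested, 9 rose (40.9%) and 1 fell (4.55%), against 14.4% and 10.7% of all genes, and the median was 0.11. Prf1, the pore-forming perforin, was at 332, 299 and 200 CPM without stimulation and 1002, 873 and 736 CPM with it (1.65 ± 0.21), and Gzmb rose by 1.17 ± 0.27. Serpinb6b and Serpinb9, inhibitors that protect the cell from its own granule proteases, rose by 1.85 ± 0.22 and 1.21 ± 0.16, and Stx11, a syntaxin needed for granule release, by 1.40 ± 0.24. Gzma went the other way without being called, from 3407, 3113 and 2833 CPM to 2780, 1984 and 1604 CPM (-0.55 ± 0.24, adjusted p = 0.0878), and Ctsc, the protease that activates granzymes, fell by 0.57 ± 0.16 on the log2 scale. Gzmb and its neighbours in the granzyme family are similar in sequence, so reads may be split between them.

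The receptors moved in both directions. Of 21 activating receptors and adaptors, 4 rose (19%) and 7 fell (33.3%), against 14.4% and 10.7% of all genes (median -0.30). Crtam, a marker of activated NK and CD8 T cells, went from 216, 138 and 163 CPM to 1361, 1207 and 1089 CPM (2.83 ± 0.18), and the early activation marker Cd69 from 42.0, 43.2 and 45.2 CPM to 178, 172 and 171 CPM (1.99 ± 0.17). Slamf7 rose by 1.73 ± 0.18 and Cd160 by 1.11 ± 0.27. The receptor that was bound fell: Klrb1c, which encodes NK1.1 (chr6:128778485-128789215, GRCm38), went from 438, 460 and 405 CPM to 206, 174 and 156 CPM, a change of -1.28 ± 0.16 (adjusted p = 1.5e-09). Its relative Klrb1a changed by -1.10 ± 0.18, Fcgr3, the Fc receptor CD16, by -1.52 ± 0.30, Cd226 by -1.40 ± 0.42 and the signalling chain Cd247 by -1.02 ± 0.24.

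Among 17 inhibitory receptors 2 rose (11.8%) and 3 fell (17.6%), against 14.4% and 10.7% of all genes. Havcr2, which encodes TIM-3, rose by 1.49 ± 0.24 and Lilrb4a by 2.40 ± 0.56, while Klrd1 and Klre1, lectin receptor chains, and Cd96 changed by -0.52 ± 0.17, -0.76 ± 0.16 and -0.50 ± 0.16. Of 9 costimulatory receptors 3 rose (33.3%) and 3 fell (33.3%), beside the same shares of all genes. Tnfrsf9, which encodes 4-1BB, rose by 1.61 ± 0.33, and Icos, Cd28 and Cd2 changed by -1.11 ± 0.18, -0.89 ± 0.21 and -1.15 ± 0.21.

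Of 23 cytokine receptor genes 4 rose (17.4%) and 7 fell (30.4%), against 14.4% and 10.7% of all genes, with a median of -0.29. Il2ra, the high-affinity chain of the IL-2 receptor, was at 73.2, 72.0 and 115 CPM without stimulation and at 406, 656 and 857 CPM with it (2.89 ± 0.24). Here replicate 1 was the lowest stimulated library, the reverse of the chemokines. Il21r rose by 1.61 ± 0.18 and Il2rg, the chain that the IL-2 and IL-21 receptors share, by 0.95 ± 0.23, although its libraries overlapped between the groups. Ifngr1, the ligand-binding chain of the interferon gamma receptor, went from 996, 1076 and 1085 CPM to 342, 304 and 251 CPM (-1.81 ± 0.17, adjusted p = 1.5e-13), and Ifnar2, Il7r and Tgfbr2 changed by -1.29 ± 0.22, -1.48 ± 0.43 and -0.80 ± 0.14.

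Of 20 homing and adhesion genes 10 fell and 1 rose, against 10.7% and 14.4% of all genes, with a median of -0.85. The chemokine receptor Ccr2 went from 1264, 1472 and 1128 CPM to 357, 432 and 405 CPM (-1.70 ± 0.17), and Cxcr3 from 34.8, 24.7 and 28.6 CPM to 10.3, 6.17 and 4.83 CPM (-2.02 ± 0.30). Selplg, which encodes the adhesion protein PSGL-1, changed by -1.29 ± 0.23, and the exit receptors S1pr1 and S1pr4 by -1.62 ± 0.44 and -1.39 ± 0.23. Cd44, a receptor for hyaluronan, was the member that rose, by 1.26 ± 0.17. Itga1, an integrin of this list at -1.26 ± 0.24, is also a marker of innate lymphoid cells, whose summed markers were at 414 to 731 CPM before and 242 to 357 CPM after stimulation, with 3 of 7 lower (Il7r, Rora and Itga1). In bulk libraries fewer cells of a type and less RNA per cell cannot be told apart, and the part of these markers in the receptor changes was not tested.

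Signalling genes next to the receptor were mixed, 7 of 22 higher (31.8%) and 6 lower (27.3%), against 14.4% and 10.7% of all genes. The adaptor Lcp2, also called SLP-76, rose by 1.23 ± 0.14 and the kinase Fyn by 0.98 ± 0.15, and so did the negative adaptor Sla, by 1.95 ± 0.21, and the phosphatase Ptpn6, by 1.00 ± 0.15. Syk, the kinase that FcRgamma recruits, changed by -0.88 ± 0.23, and the ubiquitin ligase Cblb and the lipid phosphatase Inpp5d by -0.89 ± 0.19 and -0.86 ± 0.17. Of 15 NFAT and calcium genes 2 rose (13.3%) and 5 fell (33.3%), against 14.4% and 10.7% of all genes. Orai1, the pore of the store-operated calcium channel, rose by 1.63 ± 0.20 and the calcineurin subunit Ppp3ca changed by -0.70 ± 0.17. Without stimulated replicate 1 the NFAT and calcium count was 4 higher and 1 lower.

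Transcription factors of the first wave rose together: 16 of 20 immediate early genes were higher and none lower, with a median of 1.96. Egr2 went from 42.9, 29.5 and 40.6 CPM to 363, 361 and 330 CPM (3.23 ± 0.19, adjusted p = 1.2e-21), and Nr4a2 from 54.5, 66.5 and 77.4 CPM to 546, 639 and 541 CPM (3.12 ± 0.18). Nr4a1, also called Nur77 and used as a reporter of antigen receptor signalling, went from 37.5, 32.9 and 39.6 CPM to 292, 213 and 189 CPM (2.66 ± 0.25). Jun, Fosl2 and Batf were not called, at -0.12 ± 0.25, 0.16 ± 0.23 and -0.16 ± 0.31.

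NF-kB genes did likewise, with 16 of 18 higher, none lower and a median of 1.37. The subunit Rel went from 144, 142 and 162 CPM to 787, 926 and 919 CPM (2.56 ± 0.16), and Nfkb1 and Nfkb2 rose by 1.92 ± 0.15 and 1.90 ± 0.17. The inhibitors that NF-kB induces rose too, Nfkbia by 1.92 ± 0.16 and Nfkbid by 2.34 ± 0.20. Rela was not called, at 0.12 ± 0.19.

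Of 10 MAP kinase feedback genes, phosphatases and Sprouty genes among them, 7 rose and none fell, Dusp2 by 1.87 ± 0.16. Of 11 regulators of cytokine mRNA stability 6 rose and 1 fell, among them Mir155hg, the host gene of miR-155, by 2.64 ± 0.27 and Zfp36, which encodes tristetraprolin, by 1.19 ± 0.26. Of 17 cytokine feedback genes 5 rose (29.4%), 2 fell (11.8%) and 10 were not called, against 14.4% and 10.7% of all genes. Their median was 0.33. The STAT5 targets Pim1 and Cish rose by 2.05 ± 0.14 and 1.83 ± 0.24, while Stat4, which relays IL-12, and Jak1 changed by -0.89 ± 0.18 and -0.71 ± 0.14.

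Genes that cyclic AMP, protein kinase A and CREB are known to induce were 11 of 24 higher (45.8%) and 5 lower (20.8%), and 8 were not called. Of all genes 14.4% rose and 10.7% fell, and the median of the list was 0.51. The risen members include Nr4a2, Rgs16 (2.70 ± 0.21), Rgs1 (1.40 ± 0.17) and Gem (1.67 ± 0.21), which antigen receptor signalling is known to induce as well. Crem, a classic CREB target, was at 85.7, 134 and 105 CPM without stimulation and at 135, 128 and 99.9 CPM with it, which overlap, and was not called (0.15 ± 0.22, adjusted p = 0.665). The phosphodiesterases Pde4d and Pde3b, which degrade cyclic nucleotides, changed by -1.67 ± 0.28 and -1.12 ± 0.20. Of 8 prostanoid genes tested 2 rose (25%) and none fell. The risen ones were Ptger4 and Ptges3, a cochaperone also described as a prostaglandin synthase, by 1.09 ± 0.22 and 0.94 ± 0.14.

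Of 21 transcription factors of NK cells 4 rose and 3 fell, with a median of -0.02, against 14.4% and 10.7% of all genes. Irf4, which antigen receptors induce, rose by 2.63 ± 0.28, Zeb2, needed for NK maturation, by 2.04 ± 0.22 and Irf8 by 1.49 ± 0.19. Tcf7, which encodes TCF-1 of early NK cells, went from 231, 194 and 177 CPM to 101, 86.3 and 92.7 CPM (-1.11 ± 0.17), and Ets1 and Foxo1 changed by -0.65 ± 0.14 and -0.53 ± 0.17. Eomes and Id2 were not called, at -0.37 ± 0.15 and -0.25 ± 0.14.

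Every one of the 25 ribosome biogenesis genes tested was higher, with a median of 1.77 against -0.01 for all genes. Ddx21, an RNA helicase of the nucleolus, went from 211, 237 and 219 CPM to 845, 802 and 985 CPM (1.98 ± 0.15), and Nolc1 rose by 2.10 ± 0.18. Protein folding followed, with 15 of 18 endoplasmic reticulum genes higher and none lower. Hspa5, the chaperone BiP, went from 484, 522 and 570 CPM to 1938, 2495 and 2614 CPM (2.16 ± 0.16), and Hyou1 rose by 2.497 ± 0.28. Of 12 cytosolic and mitochondrial heat shock genes 11 were higher, led by Hspa9 at 1.87 ± 0.21.

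Of 20 glycolysis and nutrient uptake genes 11 rose and 9 were not called. Of 17 amino acid response genes that Atf4 controls 11 rose, 1 fell and 5 were not called. The amino acid transporter Slc7a5 rose by 2.33 ± 0.28, the hexokinase Hk2 by 2.11 ± 0.32 and the mitochondrial folate enzyme Mthfd2 by 1.93 ± 0.18. The stress-induced mTORC1 inhibitor Ddit4 was the amino acid response member that fell, at -1.07 ± 0.27. In contrast 20 of 21 respiratory chain genes were not called (median 0.05), the exception being Cycs, cytochrome c, at 1.34 ± 0.21.

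Cell cycle genes were 2 of 28 higher (7.14%) and 6 lower (21.4%), against 14.4% and 10.7% of all genes, median -0.44. Ccnd2, the cyclin of early G1, went from 580, 550 and 679 CPM to 1899, 2218 and 2616 CPM (1.90 ± 0.16), and the inhibitors Cdkn1a and Cdkn1b went opposite ways, by 1.88 ± 0.23 and -1.38 ± 0.15. With the replicate number as a block 12 were lower, and without stimulated replicate 1, 9 were. Of 18 interferon-stimulated genes none rose and 2 fell, Irf7 by -1.30 ± 0.46 and Irf9 by -0.98 ± 0.23, a share of 11.1% against 10.7% of all genes. Irf7 was not called without stimulated replicate 1 or 2 or unstimulated replicate 1 or 2, with adjusted p-values of 0.0854, 0.0586, 0.0969 and 0.0904 in edgeR's quasi-likelihood test. Survival genes of the BCL2 family were 4 of 15 higher (26.7%, against 14.4% of all genes), with Bcl2l1, which encodes BCL-XL, at 1.78 ± 0.22. The others were Bcl2a1 copies that share reads: Bcl2a1a was at 0 in all unstimulated libraries and at 3.17, 4.62 and 0.806 CPM after stimulation.

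**Figure D3:**
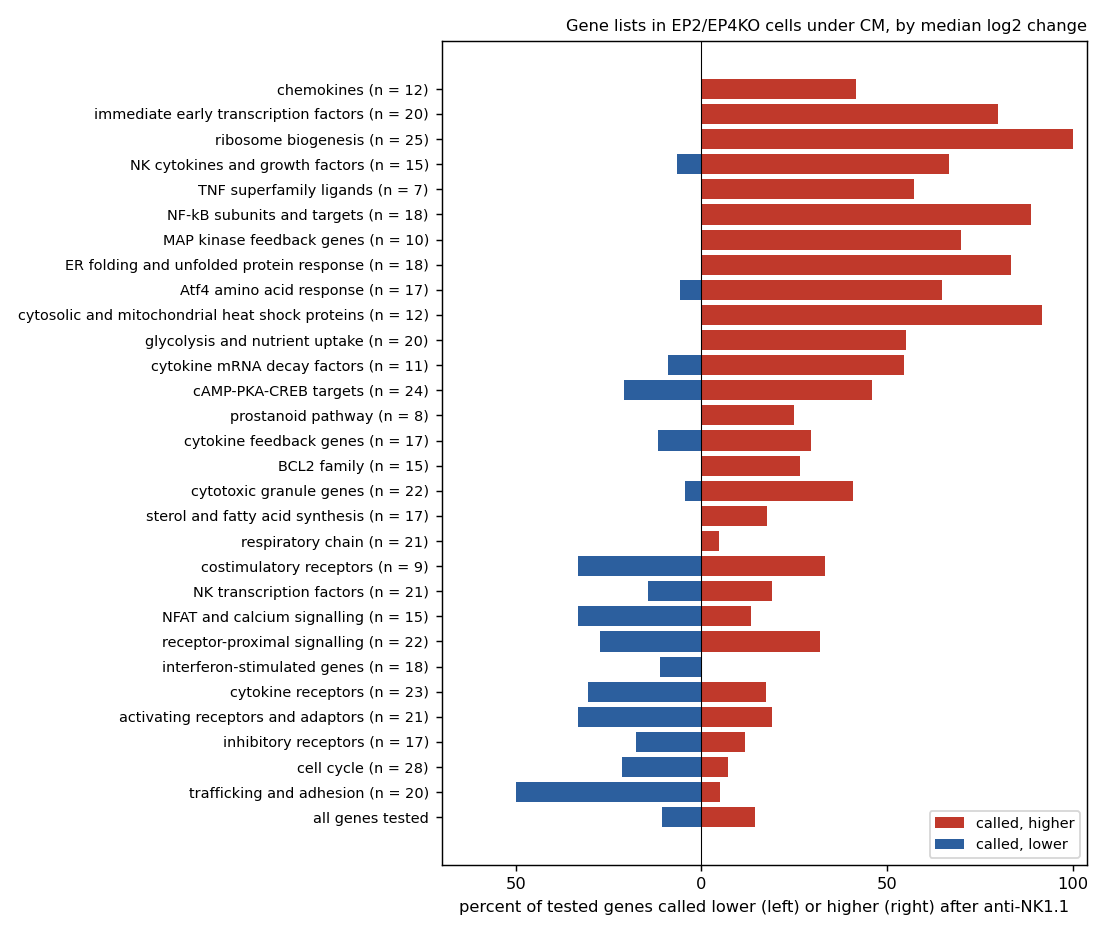
For each gene list, bars show the percent of tested members called higher (right, red) or lower (left, blue) after anti-NK1.1 in EP2/EP4KO cells in CM, with lists ordered by median log2 change and all 10723 genes in the bottom row. Ribosome biogenesis reaches 100% higher, against 14.4% of all genes, and trafficking and adhesion has 10 of 20 members lower.

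The response of EP2/EP4KO cells was then set beside their own response without CM and with PGE2, to ask whether either agent altered it in cells without the receptors. None of the 10723 genes (0%) differed between the CM and untreated responses, with 308 at an unadjusted p below 0.05 (156 larger and 152 smaller in CM) and a lowest adjusted p of 0.534. By chance alone a share of 0.05 of all genes would have such an unadjusted p, so these counts are descriptions here and below. With the replicate number as a block 1 gene differed, mt-Co1, at -1 ± 0.19. None differed from the PGE2 response either (0%), with 330 at an unadjusted p below 0.05. Without stimulated CM replicate 3, 1 did. DESeq2 called none in either comparison.

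The response genes were largely shared, where 30.2% of all genes were called in untreated cells and 31.5% in PGE2: 81.4% of the genes that rose in CM also rose in untreated cells, and 71.2% of those that rose in untreated cells also rose in CM, and of the falls 73.2% and 56.7% were shared. No gene was called in opposite directions. For PGE2 the shares were 84.2% and 69.9% of the rises and 75% and 56.3% of the falls. These are 6 other libraries in each case, and the log2 changes correlated across genes at r = 0.794 with the untreated and 0.813 with the PGE2 response, as a description, since genes are not independent.

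No single gene passed the test in these differences (all adjusted p from 0.534), and the genes above had these values. The Ifng response in CM minus that in untreated cells was -0.46 ± 0.30, for Ccl1 it was -0.14 ± 0.32, for Prf1 0.02 ± 0.29 and for Klrb1c -0.07 ± 0.22. For Ifngr1 it was 0.49 ± 0.23, with responses of -1.81 in CM and -2.30 untreated. The median SE of such a difference over all genes was 0.383, so sizeable changes in response could go uncalled, and the absence of calls does not show that the responses were alike.

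The response in CM was then compared with that of EP2KO cells, which keep Ptger4, and of WT cells, which keep both receptors. EP2KO cells in CM called 23.1% of genes in their own response and WT cells 16.9%, from 4 libraries per arm. No gene differed from the EP2KO response in CM (0%), with 555 at an unadjusted p below 0.05, 325 of them higher and 230 lower, and the lowest adjusted p was 0.0553. A share of 0.05 of all genes would have such an unadjusted p by chance alone. DESeq2 called 7, RLE scaling 3 and a replicate block 20. The numbers were taken to pair the EP2/EP4KO samples, and in EP2KO cells some marker levels followed the number as well. The count was 4 without EP2/EP4KO stimulated replicate 2, and 1 without unstimulated replicate 2 or 3 of EP2/EP4KO or unstimulated replicate 1 or 4 of EP2KO. Nfkbia, Ubxn2a, Kdm2b and Cables1, chosen after their values were seen, shared the lowest adjusted p and were among the 20 called with the block. The Nfkbia response was 1.92 in EP2/EP4KO and 0.98 in EP2KO cells, a difference of 0.94 ± 0.20. Kdm2b, a histone demethylase, was called in opposite directions in the 2 genotypes, at 0.70 and -0.40.

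Against WT cells in CM, 14 genes differed (0.131%), 12 with a higher (0.112%) and 2 with a lower (0.0187%) log2 response in EP2/EP4KO cells, and 712 had an unadjusted p below 0.05 (398 and 314). Ccl1 had the largest difference. Its level in WT cells was lowest 632, median 753 and highest 923 CPM over 4 unstimulated libraries and 1737, 1782 and 2130 CPM over 4 stimulated ones, a response of 1.28 ± 0.20 against 3.02 ± 0.24 in EP2/EP4KO cells. The difference was 1.74 ± 0.30 (adjusted p = 0.00154). The unstimulated ranges of both genotypes overlap, and each stimulated EP2/EP4KO library was above every stimulated WT library. In EP2KO cells the response was 1.799 ± 0.20, between the other two.

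The same order, EP2/EP4KO over EP2KO over WT, held in the mean log2 response of all 12 genes. These genes were picked because EP2/EP4KO and WT cells differed in these same libraries. That choice favours an EP2KO value between them, so the order is a description only. Pdgfa, a platelet-derived growth factor, responded by 2.79, 1.69 and 1.16 (difference from WT 1.63 ± 0.29, adjusted p = 0.00198). Pim1, a kinase that STAT5 induces, responded by 2.05, 1.34 and 0.96 (1.09 ± 0.19, adjusted p = 0.00154), and Rel by 2.56, 1.98 and 1.62 (0.94 ± 0.21, adjusted p = 0.0318). Ubxn2a, Eea1, an endosome tether, and Spag9, a kinase scaffold, differed by 1.00 ± 0.19, 0.91 ± 0.20 and 0.74 ± 0.17. In these genes WT cells responded in the same direction by a smaller amount on the log2 scale. For Spag9 the unstimulated levels were 274 to 322 CPM in EP2/EP4KO and 409 to 447 CPM in WT cells, and the stimulated ranges overlapped. Before stimulation Eea1 and Pim1 were also lower in EP2/EP4KO cells and Pdgfa higher, without overlap, while the ranges of Rel and Ubxn2a overlapped. The stimulated ranges of these other genes did not overlap.

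In 4 other genes the WT response was 0.27 or less. Icam1, an adhesion ligand and NF-kB target, went from a median of 76.2 to 217 CPM in EP2/EP4KO cells and from 73.9 to 77.2 CPM in WT cells, responses of 1.46 and 0.08 (difference 1.37 ± 0.31, adjusted p = 0.0385). Snx9, a sorting nexin of endocytosis, responded by 1.09 and -0.05 (1.14 ± 0.24), Gna13, a G protein subunit, by 0.87 and -0.08 (0.95 ± 0.21), and Rgs1, a brake on G protein signalling, by 1.40 and 0.27 (1.12 ± 0.22). For Rgs1 the stimulated means were 533, 625 and 568 CPM in EP2/EP4KO, EP2KO and WT cells, with overlapping ranges, while the unstimulated means were 202, 420 and 470 CPM. Gna13 was at 67.3 to 87.1 CPM in EP2/EP4KO and at 89.0 to 123 CPM in WT cells before stimulation, and the stimulated ranges overlapped. Snx9 was lower in EP2/EP4KO than in WT cells before stimulation and higher after it, without overlap. For Ccl1 and Icam1 the unstimulated ranges overlapped and the stimulated ones did not.

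Bach1, a repressor of heme and antioxidant genes, was the one gene called in opposite directions, with a response of 0.69 ± 0.24 in EP2/EP4KO and -0.80 ± 0.23 in WT cells (difference 1.49 ± 0.33, adjusted p = 0.0339). Its own call in EP2/EP4KO cells was lost without stimulated replicate 2 or 3 or unstimulated replicate 1 or 2 (adjusted p from 0.0602 to 0.153), without the filter on low counts (0.109) and with only the groups compared (0.0893). The Bach1 difference was called in 6 of the 14 fits that left out 1 library. Ifngr1 and Cbx3, a heterochromatin protein, fell further in EP2/EP4KO cells, by differences of -0.95 ± 0.22 and -0.83 ± 0.18. Ifngr1 was also lower before stimulation, at a mean of 1052 CPM against 1580 CPM in WT cells, and after it at 299 against 869 CPM, with no overlap at either point. Without CM, WT cells responded by -2.34 at Ifngr1, 2.85 at Ccl1, 2.88 at Pdgfa, 1.60 at Rgs1 and 0.95 at Bach1, beside -2.30, 3.15, 2.81, 1.57 and 0.59 in untreated EP2/EP4KO cells.

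**Figure D4:**
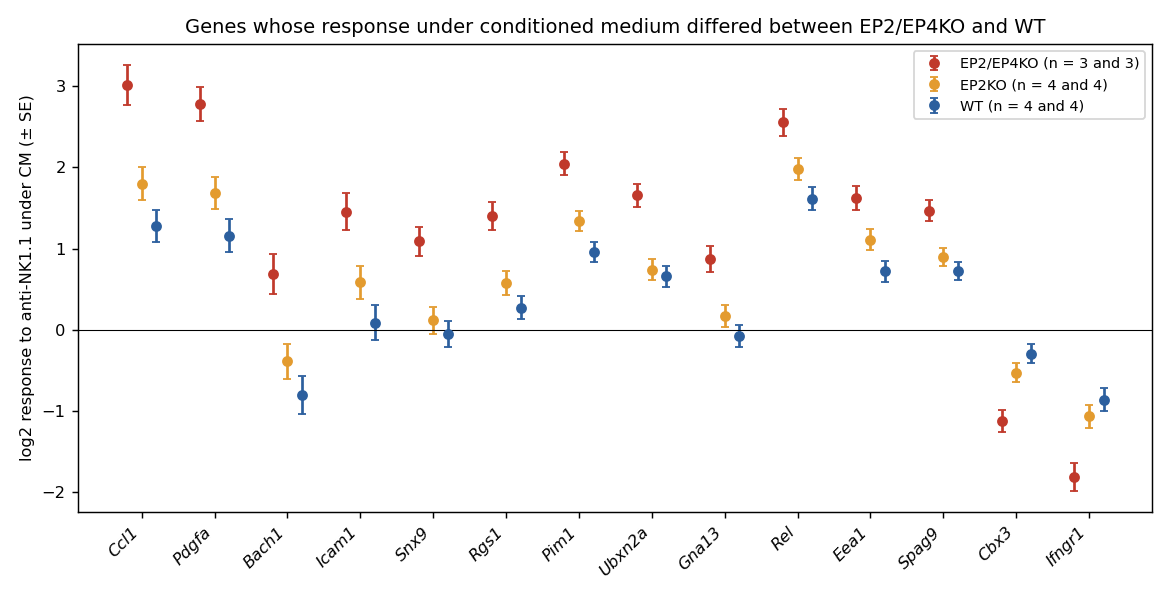
Points are the log2 response to anti-NK1.1 under CM with its SE for the 14 genes whose response differed between EP2/EP4KO (red) and WT cells (blue), with EP2KO cells (orange) between them. Red lies above blue for 12 genes, by 1.74 for Ccl1, and below it for Cbx3 and Ifngr1. The genes were picked by the difference between red and blue, which favours an orange value between them.

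The number of such genes was not stable. Fitted on the 4 groups compared alone, none of the 14 was called, with adjusted p-values from 0.105, and DESeq2 called 37. Leaving out 1 library gave between 6 and 26: 26 without EP2/EP4KO stimulated replicate 1, 6 without its replicate 2, 8 and 7 without unstimulated replicates 1 and 2, 9 and 8 without WT stimulated replicates 1 and 4, and 7, 8 and 9 without WT unstimulated replicates 1, 2 and 4. Ccl1, Pdgfa, Pim1 and Ubxn2a were called in all 14 of these fits. Rgs1 was called in 12, Snx9 in 10, Eea1 in 9 and Bach1, Cbx3 and Gna13 in 6. Rel was called in 5, Icam1 in 3 and Ifngr1 and Spag9 in only 2. The summed level of 4 Y-linked genes was 206 to 384 counts per 1000000 in the EP2/EP4KO libraries in CM and 5.31 to 15.9 in the WT and EP2KO ones, and Xist went the other way (31.9 to 66.3 against 532 to 820), so genotype and sex of the mice cannot be told apart. The unstimulated WT libraries were also shallower, at 765903 to 1013588 counts, and the part of depth was not tested.

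The lists are described here without a test of their own. The median difference from the WT response was 0.62 over the 18 NF-kB genes, all 18 positive and 2 of them called, 0.73 over cytokines and growth factors, 0.60 over chemokines, 0.66 over TNF family ligands and 0.50 over immediate early genes, beside 0.02 over all genes, of which 5661 of 10723 were positive. Over ribosome biogenesis it was 0.13, with WT cells at a median response of 1.61 in CM and EP2/EP4KO cells at 1.77. For homing and adhesion it was -0.44, from -0.85 in EP2/EP4KO and -0.39 in WT cells. The Nr4a1 response was 2.66 in EP2/EP4KO and 2.43 in WT cells, a difference of 0.23 ± 0.34.

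To compare the size of the response on genes picked without any CM library, the genes called in 1 direction in the untreated cells of all 3 genotypes were used, 1413 higher and 948 lower. Their median response in CM was 0.92 and -0.83 in EP2/EP4KO cells, 0.73 and -0.64 in EP2KO cells and 0.65 and -0.52 in WT cells, and EP2/EP4KO cells in PGE2 gave 1.02 and -0.95. The WT response was smaller in size than that of EP2/EP4KO cells for 1120 of 1413 and 805 of 948 genes, and the EP2KO response for 1042 and 717. In CM 1131 and 683 of them were called in EP2/EP4KO cells from 3 libraries per arm, and 829 and 439 in WT cells from 4. Leaving out any 1 of the 6 libraries kept the EP2/EP4KO medians between 0.89 and 0.97 and between -0.89 and -0.78. These medians are descriptions over genes that share libraries, and untreated EP2/EP4KO libraries helped to pick the genes.

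**Figure D5:**
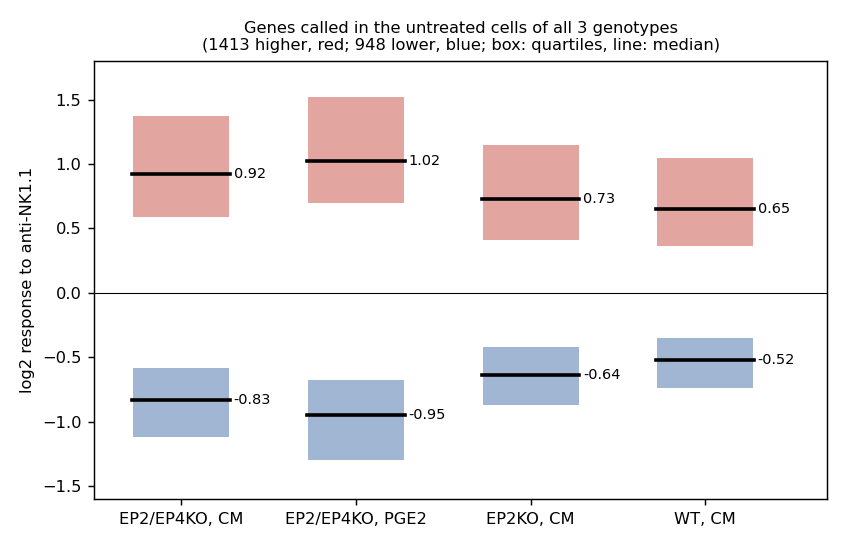
Boxes span the quartiles and lines mark the median log2 response to anti-NK1.1 of 1413 genes called higher (red) and 948 called lower (blue) in the untreated cells of all 3 genotypes. The median is 0.92 in EP2/EP4KO cells in CM and 0.65 in WT cells in CM for the higher genes, and -0.83 and -0.52 for the lower.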

How the data were processed

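Bulk 3' mRNA libraries with an oligo-dT primer, sample barcodes and unique molecular identifiers were made per the labels' protocols. The authors deposited 1 table of raw counts per gene symbol, not normalized, for 64 libraries. The submitters' processing notes name GRCm38, mm10 and DESeq2; which aligner and counter were used, whether identifiers were collapsed and whether strand was read is not given in the sources used here. Depth is the total count per library given with the results.

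Groups came from the sample titles. Genes were filtered with filterByExpr (minimum count 10), leaving 10723 genes with 99.2% of counts, and scaled by TMM. One mean per group was fitted over all 64 libraries with edgeR 4.0.16 (quasi-likelihood test, robust, R 4.3.3), with Benjamini-Hochberg adjustment over all genes tested and calls at an adjusted p below 0.05. Every adjusted p is from this test unless DESeq2 is named. Fold changes are log2 and their SE is the fold change divided by the root of F. A difference of responses is an interaction contrast. CPM uses TMM-scaled library sizes, while the sex-linked levels use total counts. The steps were tested on simulated data. Of simulated 2-fold changes, 46.3% were recovered in the response in CM. In its difference from the untreated response 13.4% were recovered, and in that from the WT response 20.9%. Of 4-fold changes the shares were 84.8%, 72.7% and 74.2%.

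The genes named were the 10 largest rises and falls among called genes whose libraries did not overlap and whose mean was 4 or more in log2 CPM, up to 4 called members per list by smallest p, 10 genes always named, and in the interactions the 5 largest each way and up to 2 list members. Other named genes were chosen after their values were seen. The groups, members and lists were chosen with earlier results of these data known. Same-numbered EP2/EP4KO libraries deviated together: in CM the correlations of their deviations were 0.594, 0.17 and 0.466 over 7085 genes, untreated 0.172 to 0.316 and in PGE2 0.142 to 0.528, so the numbers were taken to pair these samples. Alternatives were RLE scaling, no filter on low counts, a replicate block, only the groups compared, DESeq2 1.42.0 and leaving out each library. Promoter sequences are from RefSeq (GRCm38.p6) and gene positions from GENCODE M21. Some members of the lists are not reported here by name.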

Additional observations from a re-analysis of the deposited data

Results flagged for a closer look

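The response to anti-NK1.1 in CM differed between EP2/EP4KO and WT cells by edgeR's quasi-likelihood interaction test for 14 genes. As log2 response in EP2/EP4KO minus that in WT cells, the difference was 1.74 for Ccl1, 1.63 for Pdgfa, 1.49 for Bach1, 1.37 for Icam1, 1.14 for Snx9, 1.12 for Rgs1 and 1.09 for Pim1. It was 1.0 for Ubxn2a, 0.95 for Gna13, 0.94 for Rel, 0.91 for Eea1 and 0.74 for Spag9, and it was -0.83 for Cbx3 and -0.95 for Ifngr1. No explanation was tested.

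Replicate 1 of the stimulated WT libraries in CM lay well below the other 3 of its group in the share of counts from mitochondrial genes, at 7.488%, and in the share of the 20 most abundant genes, at 18.856%. Chance alone places a sample apart in some groups under this test. Without it 9 genes differed between the EP2/EP4KO and WT responses.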

How the results depend on the processing

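In CM, 2687 genes were called in EP2/EP4KO cells, 3465 with the replicate block and 1604 when only the groups compared were fitted. Leaving out 1 library gave 2052 to 2683. The difference from the untreated response went from 0 to 1 gene with no filter and 1 with the replicate block, and stayed at 0 to 0 without any library. The difference from the PGE2 response gave 0 to 1 on leaving out a library. From the EP2KO response it went from 0 to 3 with RLE scaling, 20 with the replicate block, 7 with DESeq2 and 0 to 4 on leaving out a library. From the WT response it went from 14 to 66 with the replicate block, 0 with only the groups compared, 37 with DESeq2 and 6 to 26 on leaving out a library. Deviations of same-numbered EP2KO and WT libraries in CM correlated at 0.02 to 0.273 and -0.017 to 0.409. Some marker levels followed the number in these genotypes too. Erythroid markers were at 18.1 and 14.2 CPM in unstimulated and stimulated EP2KO replicate 4, and at most 6.81 CPM in the other EP2KO libraries in CM. Neutrophil markers were at 391 and 248 CPM in WT replicate 2, and at most 160 CPM in the other WT libraries in CM. The main fit takes no account of the number, and what it stands for was not tested. The cause of these changes was not tested. Of 131 called genes named by rule, 121 kept call and direction in every alternative and 10 lost the call in at least 1 (Acaca, Bach1, Bcl2a1a, Cd96, Il7r, Irf7, Ppp3cc, Spred1, Stim2 and Txk), with 0 reversed. Genes named outside the rule, such as Areg and Ccl3, were not followed 1 by 1 through the alternatives. In the EP2/EP4KO response in CM the block changed the call of Ccl5 alone among the genes named by rule. In the differences from EP2KO and WT cells it added calls, named genes included. Counts per list without stimulated replicate 1, with the block and with RLE, and response sizes, were alternatives chosen after seeing the data. Depths of 753973 to 1693750 counts limit what can be called for genes of low level.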
